A study of Mus musculus with 5 samples.

Results

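The genes described are 10 transcription factors chosen as a set linked to keratinocyte identity: *Trp63*, *Tfap2a*, *Tfap2c*, *Gata3*, *Klf4*, *Klf5*, *Grhl1*, *Grhl3*, *Ovol1* and *Cebpa*. A ChIP-seq peak was taken as belonging to a gene when its centre lay in the gene body or within 10 kb around it, or when the nearest start of any transcript of a protein-coding gene was that of the gene. By this rule the 10 genes held 57 of 21270 SOX11 peaks and 3 of 2669 SOX4 peaks, out of 22380 protein-coding genes in the annotation. The rule uses positions only. The 10 genes were chosen with earlier results of these data known, so their counts and ratios are a description.

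The peaks came from primary keratinocytes of newborn mice with the genotype Krt14-Cre;Sox11fl/fl;Sox4fl/fl (dcKO), in which Cre under the keratin 14 promoter removes both genes. The labels give a mixed 129SvEx:C57BL/6 background, and by the study's methods the Krt14-Cre parents were FVB/N. This genotype was shared by every library, the control included. A lentivirus carried *Sox11* or *Sox4* with a FLAG tag under a doxycycline-inducible promoter, doxycycline was given for 1 day, and chromatin was precipitated with an antibody to FLAG, so that the peaks are those of an induced, tagged protein and not of the endogenous one. There were 5 libraries: 2 of SOX11-FLAG, 2 of SOX4-FLAG and 1 control, titled as input but with IgG given as its antibody. Both replicates of a factor were combined by the authors in 1 list, so there is no spread between replicates and no test between the factors. As the lists give coordinates without height or score, depth is unknown. RNA was not measured in these files, so the identity of the cells could not be checked against marker genes.

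SOX11 and SOX4 are closely related proteins of the SoxC group with an HMG box that bends DNA, and both are active in the embryonic epidermis. The 10 genes are known for what the epidermis does when it stratifies. p63 is the master regulator of stratified epithelia and is made from an upstream promoter (TAp63) and an internal promoter (ΔNp63). AP-2 factors and GATA3 work early in the epidermal lineage, KLF5 is linked to proliferating basal cells, and KLF4, the Grainyhead-like proteins, OVOL1 and C/EBPα are linked to differentiation and the barrier.

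All 3 SOX4 peaks overlapped a SOX11 peak, as did 94.5% of the whole SOX4 list. They lay in *Trp63* and at 2 sites downstream of *Klf5*, and these sites are shown as the places bound by both factors. The site downstream of *Tfap2c* is shown because it stands earliest in the SOX11 list among the 57 peaks, and it overlapped no SOX4 peak. The sequences are the plus strand of mm9 (NCBIM37) over the SOX11 peaks chr16:25780302-25780559, chr14:99848418-99848675, chr14:100023938-100024195 and chr2:172469586-172469843. Capitals mark the SOX core (CATTGT or CTTTGT, or ACAATG or ACAAAG on the other strand) and the AP-1 core TGANTCA.
Trp63 intron: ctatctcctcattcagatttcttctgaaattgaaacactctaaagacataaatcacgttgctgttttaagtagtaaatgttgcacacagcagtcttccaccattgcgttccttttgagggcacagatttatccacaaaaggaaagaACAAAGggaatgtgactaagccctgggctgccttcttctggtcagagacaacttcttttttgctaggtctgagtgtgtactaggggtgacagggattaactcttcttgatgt
Klf5 downstream, nearer site: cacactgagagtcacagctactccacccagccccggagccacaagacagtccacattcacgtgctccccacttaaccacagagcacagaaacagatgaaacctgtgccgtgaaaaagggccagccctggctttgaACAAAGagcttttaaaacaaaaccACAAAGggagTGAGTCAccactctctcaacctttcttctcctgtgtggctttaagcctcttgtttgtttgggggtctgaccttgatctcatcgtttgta
Klf5 downstream, farther site: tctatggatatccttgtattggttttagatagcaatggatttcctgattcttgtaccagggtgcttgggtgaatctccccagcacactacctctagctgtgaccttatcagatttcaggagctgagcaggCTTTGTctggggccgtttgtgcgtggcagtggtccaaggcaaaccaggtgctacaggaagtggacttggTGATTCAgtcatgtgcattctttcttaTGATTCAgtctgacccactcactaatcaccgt
Tfap2c downstream: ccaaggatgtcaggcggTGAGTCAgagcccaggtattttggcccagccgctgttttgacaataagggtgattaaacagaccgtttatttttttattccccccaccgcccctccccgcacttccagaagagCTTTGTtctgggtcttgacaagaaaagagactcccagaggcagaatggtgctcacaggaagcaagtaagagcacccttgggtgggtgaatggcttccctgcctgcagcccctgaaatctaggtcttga

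The *Trp63* sequence holds 1 SOX core and no AP-1 core. At the nearer *Klf5* site there are 2 SOX cores, and 4 bp separate one of them from an AP-1 core. The farther *Klf5* site holds 1 SOX core and 2 AP-1 cores, with 63 bp between the closest pair. The *Tfap2c* sequence holds 1 of each, 106 bp apart. In all 4 sequences a SOX core lay close to the peak centre, at 4.5 bp in the *Tfap2c* and the farther *Klf5* peak, 9.5 bp in the nearer *Klf5* peak and 20.5 bp in the *Trp63* peak.

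A SOX11 peak in a promoter was present at only *Ovol1* and *Grhl1*, and short stretches of these are shown to set them beside the distal sites. The *Ovol1* stretch is chr19:5561063-5561108, around the SOX core, and the *Grhl1* stretch is chr12:25257045-25257084, around the centre of a peak without either core. Both are the plus strand of mm9, with the SOX core in capitals.
Ovol1 promoter: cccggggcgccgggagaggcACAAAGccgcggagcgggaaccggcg
Grhl1 promoter: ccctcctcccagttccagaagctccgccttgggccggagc

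Whether the 2 factors bind near the genes of keratinocyte identity, and where, was asked first by counting. All 10 genes had at least 1 SOX11 peak, while 57.0% of all protein-coding genes had one by the same rule. *Trp63* and *Klf5* had a SOX4 peak, 2 of 10, beside 13.0% of all genes. When only the gene and 10 kb around it were considered, 7 of 10 genes had a SOX11 peak and 1 of 10 (*Trp63*) a SOX4 peak, beside 50.7% and 10.2% of all genes. The median was 4.5 SOX11 peaks for each of the 10 genes and 1 for all genes. With 10 genes these shares are coarse, and the background values are given to read them against.

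The counts were uneven. *Klf5* had 12 SOX11 peaks, *Klf4* 11, *Gata3* 10 and *Trp63* 9. *Tfap2c* had 5, *Grhl1* 4, *Tfap2a* and *Grhl3* 2 each, and *Ovol1* and *Cebpa* 1 each. Thus 3 of 10 genes had 10 or more SOX11 peaks, beside 0.594% of all genes. At least as many peaks as at *Klf5* were found at 0.255% of genes, at least as many as at *Klf4* at 0.402% and at least as many as at *Trp63* at 0.845%. By contrast, 29.0% of genes had at least as many as *Tfap2a* and *Grhl3*. The high counts rest on the use of protein-coding starts alone. Every *Klf4* peak and every *Klf5* peak but the intronic one was nearer to a start of another gene type. So were the *Gata3* peaks from 140.2 kb outward. With starts of every gene type, none of these 3 genes kept 10 peaks.

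**Figure D1:**
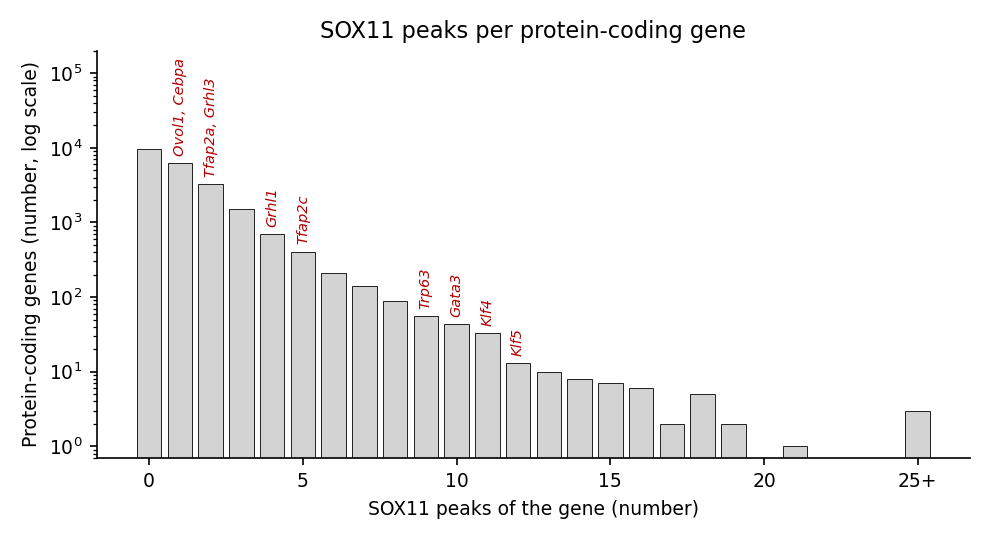
Number of protein-coding genes (log axis) with each number of SOX11 peaks, with the 10 keratinocyte factors written above the bar they belong to. *Trp63*, *Gata3*, *Klf4* and *Klf5* lie in the sparse right part with 9 to 12 peaks, while *Ovol1* and *Cebpa* stand above the bar of genes with 1 peak.

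*Trp63* (ENSMUSG00000022510.8, chr16:25683849-25892188, plus strand) had 5 of its 9 SOX11 peaks in its own introns and 4 upstream of the gene. The intronic peak shared with SOX4 was number 461 in the SOX11 list and number 577 (chr16:25780335-25780674) in the SOX4 list, and the peaks had 225 bp in common. It lay within the long 5′ part of the gene, 21.6 kb upstream of the internal start at 25802002, from which the ΔN transcripts run. The intronic peak next in the list, number 1458, lay 33.6 kb downstream of the same start and held 2 SOX cores and 2 AP-1 cores. The other intronic peaks lay 15.9 and 41.9 kb downstream of the internal start, and 42.0 kb downstream of the upstream start. The 4 peaks outside the gene lay 16.8, 53.5, 59.3 and 151.7 kb upstream of the upstream start. No peak lay within 10 kb of a *Trp63* start. Of the 9 peaks, 6 held a SOX core and 2 an AP-1 core, and 7 were among the first 10635 of the SOX11 list.

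*Tfap2a* and *Tfap2c* encode AP-2α and AP-2γ, and their peaks differed in number and place. *Tfap2a* (named *Tcfap2a* in the annotation, chr13:40811044-40829192, minus strand) had a peak over a coding exon, 11.2 kb downstream of a start, and another 15.7 kb upstream. Both held a SOX core and neither an AP-1 core, and they were numbers 15111 (chr13:40814446-40814703) and 20604 of the list. *Tfap2c* (*Tcfap2c*, chr2:172375093-172384122, plus strand) had none in the gene or within 10 kb of it. All 5 of its peaks lay downstream, 77.6 to 179.4 kb from its innermost start, that of a processed transcript, and 78.7 to 180.6 kb from that of a protein-coding transcript, in the gap of 309.4 kb before *Bmp7*, a gene of the bone morphogenetic protein family. The peak at 92.1 kb was number 102 of the SOX11 list. AP-1 cores were in 4 of these 5 peaks and SOX cores in 3.

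*Gata3* (ENSMUSG00000015619.9, chr2:9778705-9811661, minus strand), a factor of the epidermal barrier and the hair follicle, had all 10 of its SOX11 peaks downstream of its starts. Distances at *Gata3* were measured from its innermost annotated start, that of a processed transcript. The nearest peak lay in an intron, 6.44 kb from this start and 11.4 kb from the nearest start of a protein-coding *Gata3* transcript. The next 3, at 38.3, 55.4 and 81.8 kb, were numbers 3021, 2484 and 1187 of the list, and each held a SOX core. Number 1187, the earliest of the 10, lay at chr2:9713413-9713670. Further peaks lay at 109.2, 140.2, 379.8, 391.8, 1092 and 1139 kb. The last pair was separated from the others by 700.6 kb, within a gap of 2776 kb to the next protein-coding gene *Celf2*. The rule gave this pair to *Gata3* for want of a closer protein-coding start, though the start of a pseudogene was nearer. Over this large stretch *Gata3* had 7.04 peaks per Mb (95% exact Poisson interval 3.38 to 13.0). The density over all genes, 8.06 per Mb, lay within this interval.

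*Klf4* (chr4:55540013-55545347, minus strand), needed for the skin barrier, had no peak in the gene or 10 kb around it. Upstream, 9 peaks lay 186.2 to 590.0 kb away in a gap of 1208 kb before *Actl7b*, and downstream there were 2, at 43.1 and 88.0 kb. The earliest in the list, number 3203, lay 404.1 kb upstream at chr4:55949367-55949624, with a SOX core and an AP-1 core 7 bp apart. SOX cores were in 8 of the 11 peaks, AP-1 cores in 6 and both in 5. The closest neighbours, numbers 8400 and 9336, were 3.25 kb apart.

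*Klf5* (chr14:99697910-99712624, plus strand), expressed in the proliferating basal layer, had all 12 peaks downstream of its start, up to 333.9 kb away in the gap of 557.2 kb before *Klf12*. Its density was 24.7 peaks per Mb (95% exact Poisson interval 12.7 to 43.1), against 8.06 over all genes. A peak in an intron, 6.91 kb from the start, was number 16525 of the list. The 2 peaks shared with SOX4, at 150.6 and 326.2 kb, were numbers 520 and 1457 of the SOX11 list and numbers 395 (chr14:99848372-99848711) and 1438 (chr14:100023899-100024238) of the SOX4 list. Each SOX11 peak lay wholly within the SOX4 peak, with 258 bp in common. They were the only *Klf5* peaks among the first 10635 of the SOX11 list, and the other 10 came later. Of the 12 peaks 5 held a SOX core and 7 an AP-1 core.

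**Figure D2:**
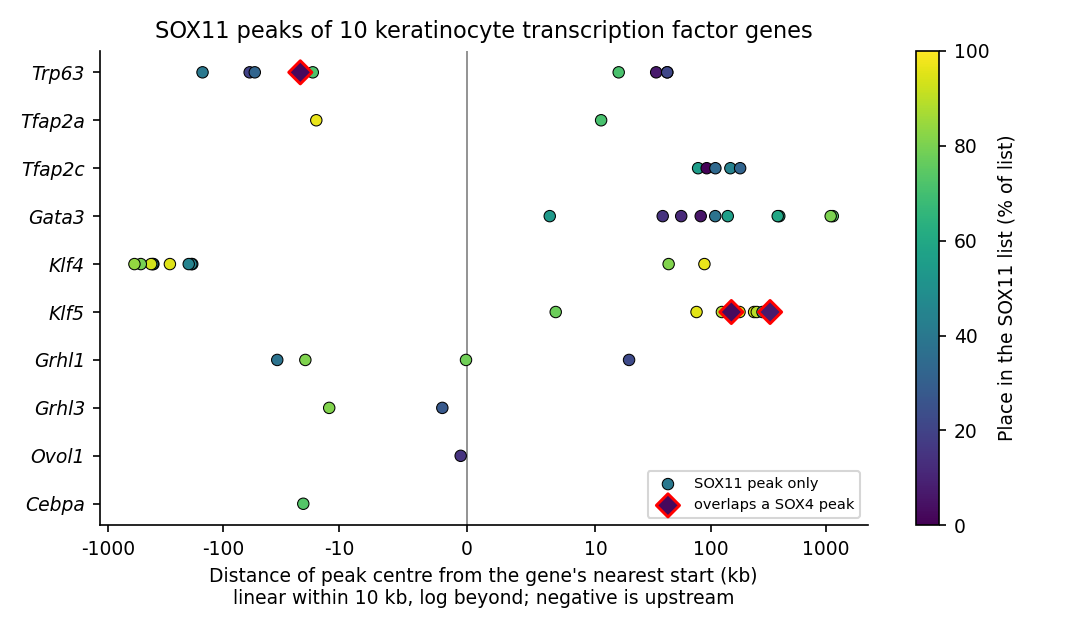
Each SOX11 peak of the 10 genes by the distance of its centre from the nearest start of the gene in kb (linear within 10 kb, logarithmic beyond, negative upstream), coloured by its place in the SOX11 list in percent. Red diamonds are the 3 peaks that overlapped a SOX4 peak, 1 at *Trp63* and 2 at *Klf5*. Peaks of *Gata3*, *Klf5* and *Tfap2c* lie on the downstream side, and 9 of the 11 peaks of *Klf4* upstream.

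The Grainyhead-like genes, *Ovol1* and *Cebpa*, which act in differentiating layers, had 1 to 4 peaks each, none farther than 34.2 kb from a start. *Grhl1* (chr12:25257152-25302256, plus strand), linked to desmosomes, had a promoter peak 87 bp upstream of its start at chr12:25256937-25257194 with a GC content of 73.6% and no SOX or AP-1 core. An intronic peak lay 19.6 kb downstream and was the earliest of the 4, number 4741 (chr12:25285067-25285324). The other 2 lay 19.5 and 34.2 kb upstream in an intron of the neighbouring gene *Taf1b*. In one of these, number 8089, an AP-1 core overlapped a SOX core by 2 bp. *Grhl3* (chr4:135097803-135129545, minus strand), needed for barrier formation and wound closure, had a peak 1.93 kb upstream, number 5883 (chr4:135131350-135131607), with a SOX and an AP-1 core 74 bp apart. Its other peak, 12.1 kb upstream, held neither.

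*Ovol1* (chr19:5549137-5560575, minus strand), a zinc finger factor that restrains progenitor growth, had 1 SOX11 peak, in the promoter at chr19:5560949-5561206, 502 bp upstream of the start. It was number 3155 of the list, had a GC content of 68.6% and held a SOX core, 8.5 bp from the centre. *Cebpa* (chr7:35904312-35906945, plus strand), linked to exit from the cell cycle, also had 1 peak, 20.3 kb upstream at chr7:35883854-35884111, number 15610, with a SOX core and no AP-1 core. In all, 2 of 10 genes had a SOX11 peak in a promoter (the 1 kb before and 100 bp after a start), beside 23.1% of all genes.

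The 10 kb limit of the rule added no peak: all 57 had a start of the 10 genes as the nearest. The peak 1.93 kb from *Grhl3* was the farthest outside a gene that the limit took in. Just beyond the limit were the *Grhl3* peak at 12.1 kb, kept by its nearest start, and a peak 13.0 kb from *Grhl1*, number 20204, whose nearest start was that of *Klf11* and which was not counted. In the ring from 10 to 50 kb around the genes, 9 SOX11 peaks were nearer to the start of another gene, 3 of them at *Grhl1* and 3 at *Ovol1*.

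The place of the 57 peaks differed from that of the list. Their median distance from the nearest start was 109.2 kb, against 11.5 kb for all 21270 SOX11 peaks. Over 100 kb from a start lay 29 of 57, or 50.9% (95% Wilson interval 38.3 to 63.4), against 11.7% of the list. Within 10 kb lay 5 of 57, or 8.77% (3.81 to 18.9), against 47.9%. Between genes lay 44, or 77.2% (64.8 to 86.2), against 40.0%, in introns 10, or 17.5% (9.82 to 29.4), against 33.4%, in promoters 2, or 3.51% (0.968 to 11.9), against 23.3%, and 1 over an exon. These intervals cover counting error only, and peaks of the same gene are not replicates. Genes with wide gaps around them take more distant peaks by the rule. Of the 57 peaks, 32 (56.1%) were nearer to the start of another type of gene, 13 of them a snRNA gene and 10 a processed transcript, and 22.7% of the list was, so the link from a distant peak to its gene is one of position and was not tested.

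**Figure D3:**
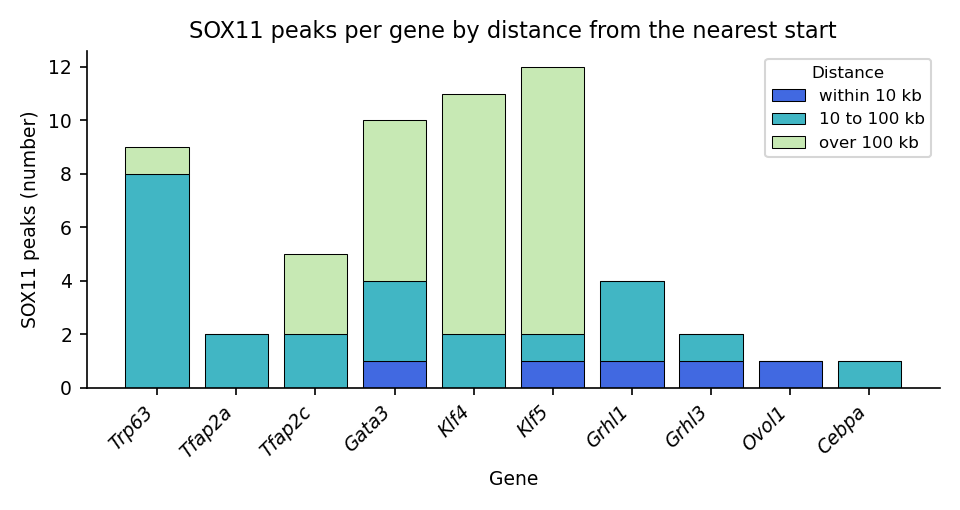
SOX11 peaks of each of the 10 genes, split by distance from the nearest start (within 10 kb, 10 to 100 kb, over 100 kb). Peaks over 100 kb away make up 10 of 12 at *Klf5*, 9 of 11 at *Klf4* and 6 of 10 at *Gata3*, while 8 of the 9 of *Trp63* lie between 10 and 100 kb.

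Because wide gaps collect peaks, the number of peaks was set against the length of sequence that lies nearest to the start of a gene. More than 10 kb from a start, the 10 genes had 52 SOX11 peaks in 3.36 Mb, or 15.5 per Mb (95% exact Poisson interval 11.6 to 20.3). Over all genes there were 5.26 per Mb, a ratio of 2.94 (2.20 to 3.86). Without *Gata3*, which takes the longest stretch, the ratio was 4.16, and leaving out each of the other genes in turn gave 2.70 to 2.96. Within 10 kb of a start, the 10 genes had 21.0 per Mb (6.82 to 49.0), close to the 19.2 of all genes. The intervals treat peaks as independent, which neighbours at 1 gene need not be.

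For comparison, 2 lists of transcription factors were counted in the same way. Of 21 other epidermal factors in the annotation, 14 had a SOX11 peak and 7 a SOX4 peak, with a median of 1 SOX11 peak. Those with the most were *Klf6*, with 17 SOX11 peaks and 1 SOX4 peak, and *Maf*, with 10 and 3. *Grhl2*, the third Grainyhead-like gene, and *Bcl11b* had 8 SOX11 peaks and 1 SOX4 peak each, and *Klf3* and *Prdm1* 7 and 1 each. Of 20 factors of other lineages, 8 had a SOX11 peak and 1, *Hnf4a*, a SOX4 peak, with a median of 0 and no more than 3 peaks at a gene (*Foxa2* and *Mitf*). More than 10 kb from a start, the density was 10.9 per Mb (8.09 to 14.4) for the other epidermal factors and 2.22 per Mb (0.894 to 4.58) for those of other lineages. The interval for the 10 keratinocyte genes overlapped the first and not the second. As the lists were chosen with results of these data known, these values are a description.

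**Figure D4:**
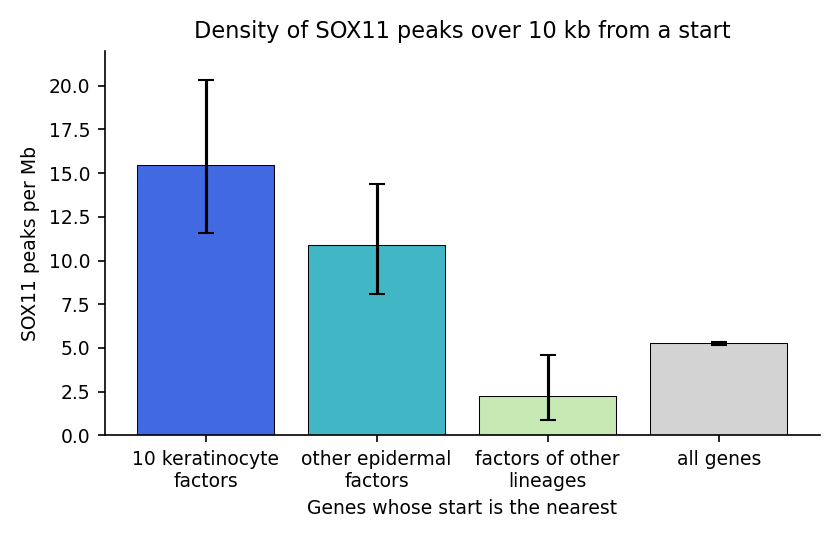
SOX11 peaks per Mb more than 10 kb from a transcription start, for the 10 keratinocyte factors, the other epidermal factors, factors of other lineages and all protein-coding genes. Bars are the density and whiskers its 95% exact Poisson interval, which covers counting error only, and the values run from 2.22 for other lineages to 15.5 for the 10 genes.

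What the peaks hold in sequence was compared with the whole list, since the rule did not use it. A SOX core was in 37 of 57 peaks, or 64.9% (51.9 to 76.0), and in 58.5% of all SOX11 peaks. An AP-1 core was in 27, or 47.4% (35.0 to 60.1), and in 34.0% of the list. AP-1 factors are dimers of JUN and FOS proteins. Distance moved with the AP-1 core: among peaks more than 10 kb from a start it was in 48.1% (35.1 to 61.3) of the 52 at the 10 genes and in 45.8% of all such peaks in the list. The SOX core was at 65.4% and 64.5% in the same classes. For both cores the share of the list lay within the interval after this cut at 10 kb. The cut did not match distances beyond 10 kb. Over 100 kb from a start lay 29 of the 52 peaks at the 10 genes and 2484 of the 11091 in the list. Over all 57 peaks the AP-1 share of the list lay below the interval, and that of the SOX core within it. With AP-1 cores counted only within 50 bp of the centre, the list's 19.2% lay within the interval around 26.3% (16.6 to 39.0).

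At the 10 genes the AP-1 share was also higher among the first 10635 peaks of the list than among the rest, with overlapping intervals. The whole list did not show this, with 32.0% in the first 10635 peaks and 35.9% in the rest. What the order of the list stands for is not given in the sources used here. Of the first 10635 peaks, 26 belonged to the 10 genes, and an AP-1 core was in 16 of them, or 61.5% (42.5 to 77.6), against 32.0% of that part of the list, which lies below the interval. Among those more than 10 kb from a start it was 15 of 24, or 62.5% (42.7 to 78.8), against 44.8%, which lies within the interval. In the later part the share was 35.5% (21.1 to 53.1), against 35.9%. A SOX core was in 80.8% (62.1 to 91.5) of the 26 earlier peaks and in 51.6% of the 31 later ones, while the whole list gave 67.3% and 49.6%.

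Both cores were present in 17 peaks (29.8%, 19.5 to 42.7, against 20.5%), a SOX core alone in 20 (35.1%, against 38.0%), an AP-1 core alone in 10 (17.5%, against 13.5%) and neither in 10 (17.5%, 9.82 to 29.4, against 28.1%). In the 17, the closest pair of cores was a median of 74 bp apart, against 43 bp in the 4364 peaks of the list with both. At *Klf5*, *Klf4* and *Grhl1* there were pairs at 4, 7 and -2 bp, the last an overlap. The word CTTTGT was more frequent than CATTGT in the peaks of the 10 genes (50.9% and 19.3% of peaks), as in the list (46.4% and 19.6%).

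Words of the motifs of the 10 proteins themselves were searched in the same peaks. The Grainyhead-like motif AACCNGTT was in 4 peaks, 2 at *Klf4*, 1 at *Gata3* and 1 at *Klf5*, or 7.02% (2.76 to 16.7), against 2.64% of the list. The KLF word CCNCACCC was in 8 peaks (14.0%, against 16.6%), the AP-2 word GCCNNNGGC in 8 (14.0%, against 15.3%), the C/EBP word TTGCNNAA in 9 (15.8%, against 10.7%) and the GATA word AGATAA in 4 (7.02%, against 9.70%). The OVOL word CCGTTA and the p63 motif (a pair of CATG with 6 bases between) were in 0 of 57, with an upper Wilson bound of 6.31%, and in 1.62% and 1.50% of the list. The TEAD word GGAATG was in 15 (26.3%, against 22.8%). All words were searched on both strands in the whole peak, and AP-1 and SOX words can overlap others. Except for the Grainyhead-like motif, whose interval began just above the value of the list, each of these shares had the list's value within its interval.

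**Figure D5:**
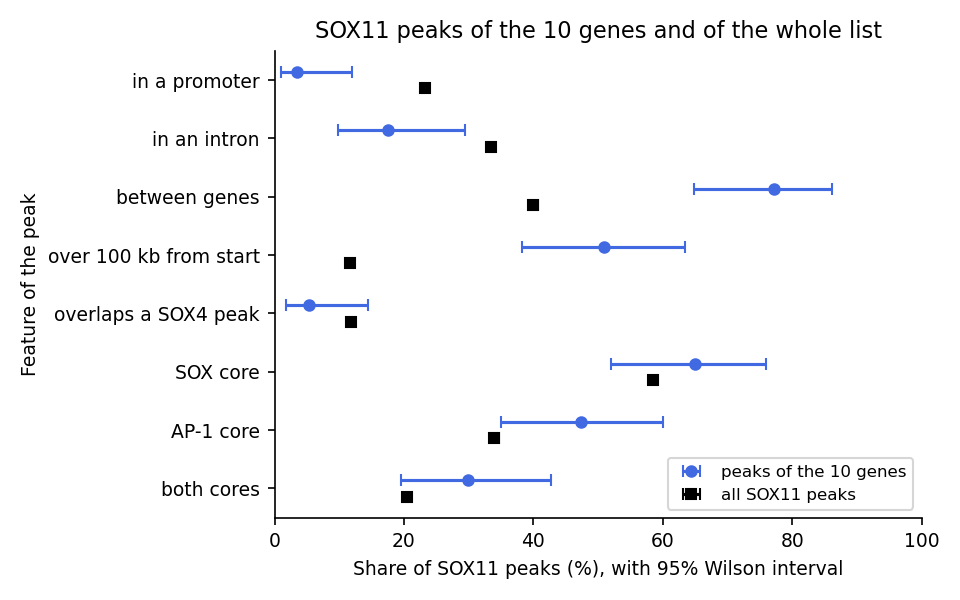
Percent of SOX11 peaks with each feature, for the 57 peaks of the 10 genes (blue circles) and for the whole list of 21270 (black squares), with 95% Wilson intervals as whiskers. The shares lie apart for position (50.9% against 11.7% over 100 kb from a start, 3.51% against 23.3% in promoters). The share of the list lies within the interval for the SOX core (64.9% against 58.5%) and the overlap with SOX4 (5.26% against 11.9%). For the AP-1 core (47.4% against 34.0%) it lies just below the interval.

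Overlap with SOX4 was seen at 3 of 57 SOX11 peaks, or 5.26% (1.81 to 14.4), against 11.9% of the list, a difference within counting error. In the whole list, 21.1% of the first 10635 SOX11 peaks overlapped a SOX4 peak and 2.66% of the rest, so the earliest peaks were also compared. Among the first 1500, 6 belonged to the 10 genes: numbers 102 (*Tfap2c*), 461 and 1458 (*Trp63*), 520 and 1457 (*Klf5*) and 1187 (*Gata3*). SOX4 overlapped 3 of these, beside 71.8% of the first 1500. The 3 without a SOX4 peak were at *Tfap2c*, *Gata3* and *Trp63*. All 6 held a SOX core, beside 91.5%. An AP-1 core was in 4 of the 6 (66.7%, 30.0 to 90.3), beside 29.9%, just below a wide interval. Among the first 5317 peaks it was in 7 of 14 (50.0%, 26.8 to 73.2), beside 31.2%, which lies within the interval. The SOX4 list is shorter, its depth is unknown, and an absent SOX4 peak is not evidence that SOX4 was absent there.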

How the data were processed

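ChIP-seq libraries of SOX11-FLAG, SOX4-FLAG and a control were made from dcKO keratinocytes. Per the study's methods and the submitters' processing notes, single-end reads were mapped to mm9 with Bowtie2, poor reads and duplicates (Picard) were removed, peaks were called with HOMER in factor style, and blacklisted regions were taken out with bedtools. Versions and thresholds are not given in the sources used here. The values deposited by the authors are start and end coordinates, neither counts nor signal, in 1 list for the 2 replicates of each factor.

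Starts were read as 0-based and are printed from 1. Genes and starts came from GENCODE M1, and *Tfap2a* and *Tfap2c* were found through RefSeq synonyms. Peaks were placed by their centre, first in promoters, then in exons, introns or between genes. Overlap was at least 1 bp. Python 3.11.15, numpy 2.4.6, scipy 1.17.1, pysam 0.24.0 and matplotlib 3.10.9 were used. Assignment, promoters, overlap and motif search were tested on simulated data, with 500 of 500 positions, 200 of 200 planted overlaps and 500 of 500 sequences right. No significance test was run, as the lists hold no replicates. Shares carry 95% Wilson intervals and densities 95% exact Poisson intervals.

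The genes and comparison lists were chosen with earlier results of these data known. All 10 genes are named. Positions are given for peaks shared by both factors, promoter peaks and the earliest peak of each gene. Of the comparison lists, the genes with a SOX4 peak and the 3 with the most SOX11 peaks are named, save for ties at 1 peak and 1 gene that is not reported here. For 9 results 61 alternatives were computed, 45 set at the start and 16 added after seeing the data.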

Additional observations from a re-analysis of the deposited data

How the results depend on the processing

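No paired analysis was possible because the 2 replicates of each factor were merged into 1 list, and for the same reason no replicate was left out. Of 61 alternatives, 38 left the value within its interval or within 1.5 times the count, and 23 moved it. The number of SOX11 peaks, 57 by the whole rule, was 9 in gene bodies alone, 12 in genes and 10 kb around them, 30 with 50 kb, 28 by nearest start within 100 kb, 27 when starts of every gene type were used and 26 in the first 10635 peaks of the list. The number of genes with a SOX11 peak fell from 10 to 5 with gene bodies alone. The number of SOX4 peaks was 1 and the number of genes with one was 1 under the first 5 of these settings. At the nearest-start setting of every gene type, starts of snRNA genes were nearer to both *Klf5* sites. The SOX core share was 80.8% in the first 10635 peaks. The AP-1 core share was 64.9% (51.9 to 76.0) with a longer AP-1 motif and 1 mismatch, against 41.1% of the list, and 61.5% in the first 10635 peaks. Within 50 bp of the centre it was 26.3% (16.6 to 39.0), against 19.2% of the list, which then lies within the interval. The longer AP-1 motif and the window of 50 bp were compared with the whole list only, not by distance from a start. With starts of protein-coding transcripts only, also chosen after seeing the data, there were 59 SOX11 peaks, the 57 and 2 more downstream of *Trp63*, and 4 SOX4 peaks. The distances then changed for 15 of the 57 (*Gata3* and *Tfap2c*), and 4 of 59 lay within 10 kb of a start and 31 over 100 kb. The density ratio was 3.89 more than 50 kb from a start and 4.16 without *Gata3*, both chosen after seeing the data. The list holds no depth, so a gene without a SOX4 peak may have binding below the authors' threshold.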
